A study of Mus musculus with 2 samples.

Results

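This account covers 31 mouse genes for the synthesis of purine and pyrimidine nucleotides, of serine and of the folate-bound one-carbon units that purine rings need, together with the enzymes that recycle bases and nucleosides. The genes were chosen by name and matched by Ensembl gene ID in both gene tables, and all 31 were found among 43346 Ensembl genes. The assay was total RNA-seq of common myeloid progenitors (CMP), the marrow cells from which granulocytes, monocytes, platelet-forming cells and erythroid cells develop. They were primary cells of adult male mice (C57BL/6J, 5 to 6 weeks old), with no treatment or engineered allele in the labels. There was 1 group of 2 libraries, numbered as biological replicates 1 and 2, each made from 100 ng of rRNA-depleted RNA. One donor label covers both, and their spread may be partly technical. With 1 group there is no comparison of conditions and no test, and each value is given per library.

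Nucleotides are made by 2 routes. The de novo route builds the purine ring step by step on phosphoribosyl pyrophosphate (PRPP) to reach inosine monophosphate (IMP), and makes the pyrimidine ring before joining it to PRPP to give uridine monophosphate (UMP). The salvage route attaches PRPP to a ready base or phosphorylates a ready nucleoside. Serine made from glucose gives its side-chain carbon to folate, and folate passes it to the purine ring and to thymidylate. Dividing blood progenitors draw on all of these for DNA and RNA.

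The files hold 28158803 expected counts (estimated reads per gene) in replicate 1 and 84041054 in replicate 2, and the members had 446 to 14772 and 953 to 41443 of them. Of 9 genes listed as CMP markers, 9 were at 1 TPM or more in both libraries (a relative level corrected for transcript length), with Mpo at 314 and 399 TPM, Cd34 at 125 and 121 TPM and Kit at 33.5 and 39.8 TPM. The same threshold was met by 1 of 6 B cell genes (Cd79b), 0 of 6 T and NK cell genes, 0 of 6 macrophage genes, 1 of 6 stroma and endothelium genes (Pdgfrb), 1 of 6 stem cell genes (Hlf) and 4 of 6 genes of maturing red cells. Summed TPM in replicates 1 and 2 was 598 and 719 for the CMP list, 45.9 and 46.5 for the red cell list, and at most 6.17 in either library for the other lists. Cd3e and Col1a1 had 0 counts in both libraries. The part of such cells in the levels below was not tested.

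All 31 genes were expressed, and most stood well above the typical expressed gene. Each was at 1 TPM or more in both libraries, a level met by 42.5% of 21461 nuclear protein-coding genes, and 27 reached 5 TPM in both, against 24.7% of the same genes. Their median was 21.4 TPM in replicate 1 and 20.5 TPM in replicate 2 (20.9 ± 0.658 TPM, SD, n = 2), against 7.24 ± 0.750 TPM (n = 2) over the 9116 protein-coding genes at 1 TPM or more in both. By mean level 28 of 31 lay above that median and 9 were in the top 10% of those genes. Summed over protein-coding transcripts alone, the median of the 31 was 14.8 TPM. The median of the 9116 genes was not recomputed that way, so the contrast holds for all transcripts only. Paics, at a mean of 103 TPM, was 24.6-fold above the lowest member, Psph, at 4.17 TPM. Between genes that follow each other in the order of mean levels, 8 of 30 steps were larger than the larger of the 2 SDs. By that rule most neighbours could not be ordered. The SDs are between libraries, though, and order can also be read within each library. Of the steps that failed the rule, some, such as Phgdh over Hprt, had the same order in both libraries. Others, such as Hprt over Impdh2, did not. In RNA from many cells, fewer cells with a transcript and less of it per cell cannot be told apart. Ctps2, Hprt, Prps1 and Prps2 are on the X chromosome and the other members on autosomes.

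**Figure D1:**
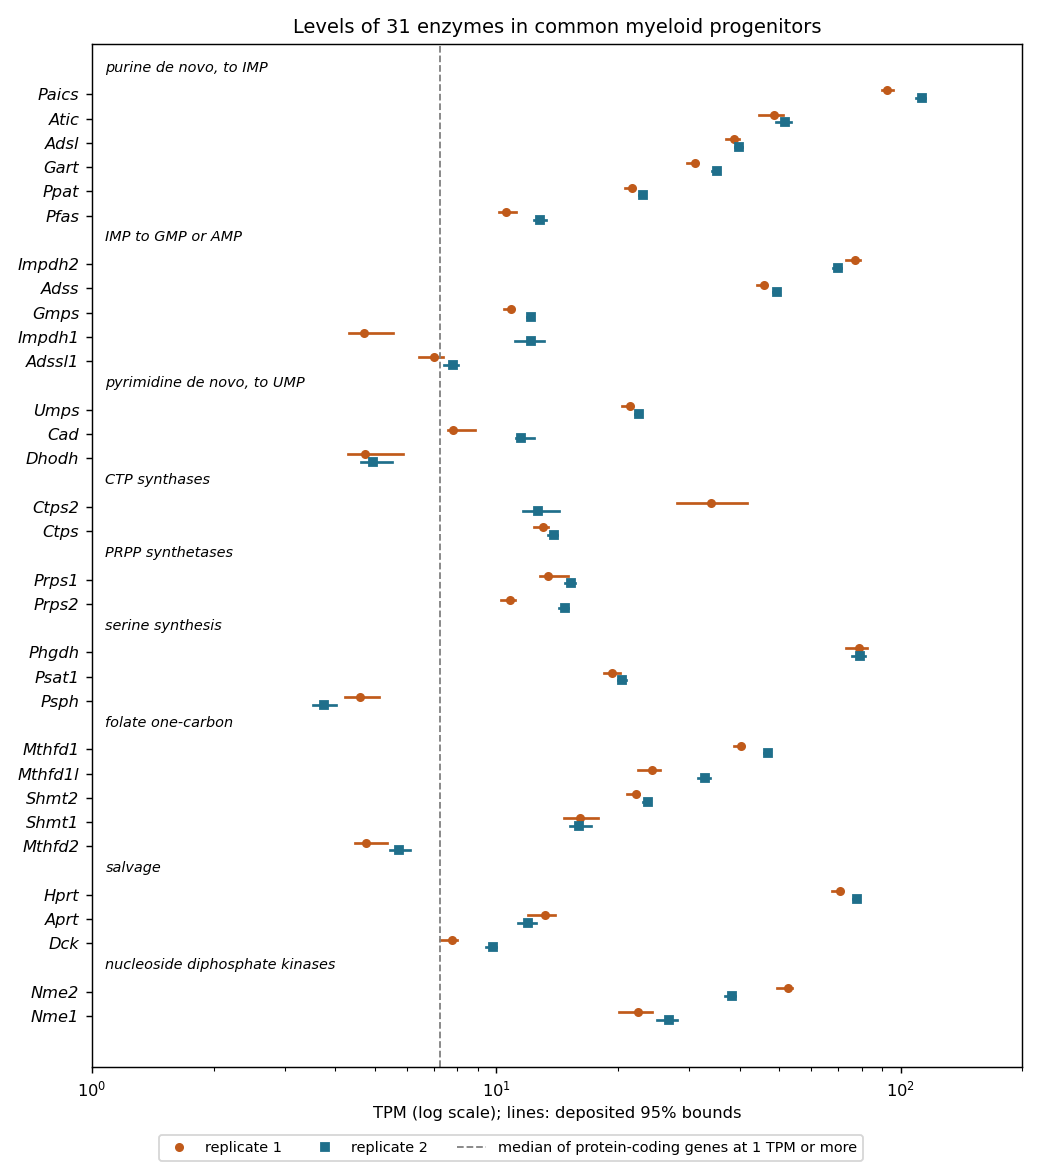
TPM of each of the 31 genes (horizontal log axis) in replicate 1 (circles) and replicate 2 (squares), grouped by role, with the deposited 95% bounds as lines and the median of 9116 expressed protein-coding genes as the dashed line. Paics, Phgdh, Hprt and Impdh2 sit highest, and Psph, Dhodh and Mthfd2 lie below the dashed line in both libraries.

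The 6 enzymes of the purine ring had a median of 34.8 TPM in replicate 1 and 37.5 TPM in replicate 2 (36.1 ± 1.90 TPM, n = 2). Among the 9 role groups only the nucleoside diphosphate kinases, a group of 2 genes, came near. They had 37.5 and 32.5 TPM (35.0 ± 3.57 TPM, n = 2), and over all transcripts the 2 groups could not be ordered. On protein-coding transcripts alone the kinases were the higher by mean, at 35.0 TPM against 27.7 TPM for the purine ring. Paics, a bifunctional carboxylase and ligase of the middle of the pathway, had 92.6 and 113 TPM. It was the highest of the 31 genes in both libraries. Atic, which carries out the last formylation and closes the ring to IMP, had 48.5 and 51.7 TPM. Adsl, the lyase used both here and on the way to AMP, had 38.7 and 39.9 TPM. Gart, a trifunctional enzyme that holds an earlier formylation, had 30.9 and 35.1 TPM. Deposited bounds overlapped between the libraries for Atic and Adsl and did not for Paics and Gart.

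The entry enzyme of this chain was among its lower members. Ppat, the amidotransferase that commits PRPP to purine synthesis, had 21.7 and 23.1 TPM, so Paics stood 4.27-fold and 4.88-fold above it. Pfas, which follows Gart's first steps, was the lowest of the 6 at 10.6 and 12.8 TPM, with Paics 8.78-fold and 8.79-fold above it. The order Paics, Atic, Adsl, Gart, Ppat, Pfas was the same in both libraries over all transcripts. Over protein-coding transcripts alone it was not. There Atic had 29.0 and 34.2 TPM and Adsl 29.4 and 32.4 TPM, so Adsl was the higher in replicate 1. Gart had 26.7 and 22.6 TPM there, lower in replicate 2 where its level over all transcripts was higher, and Ppat had 20.7 and 22.7 TPM, above Gart in replicate 2.

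Ppat and Paics share a start region on chromosome 5 and point in opposite directions. In GENCODE M21 on GRCm38, Ppat covers chr5:76913249-76951578 on the minus strand and Paics chr5:76951307-76967509 on the plus strand, so their exons overlap by 272 bases. Whether reads were counted by strand is not given in the sources used here, so reads from the overlap cannot be assigned by position alone; it is 6.15% of Ppat's exon bases and 8.67% of those of Paics. Their promoter windows, from 250 bases before to 50 bases after the start in RefSeq on GRCm38.p6, are printed because the pair differs more than 4-fold in level from a shared region. They are chr5:76951052-76951351 (plus strand) for Paics and chr5:76951529-76951828 (minus strand) for Ppat, and the capitals mark the E-box CACGTG in Paics and a match to the NRF1 element, a motif named for the factor that binds it, in Ppat.
Paics: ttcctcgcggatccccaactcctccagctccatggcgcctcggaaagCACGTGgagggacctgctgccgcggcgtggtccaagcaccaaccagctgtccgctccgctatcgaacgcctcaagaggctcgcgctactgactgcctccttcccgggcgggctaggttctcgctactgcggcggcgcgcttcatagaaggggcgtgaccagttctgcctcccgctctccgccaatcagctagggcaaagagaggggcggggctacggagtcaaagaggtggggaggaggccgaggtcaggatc
Ppat: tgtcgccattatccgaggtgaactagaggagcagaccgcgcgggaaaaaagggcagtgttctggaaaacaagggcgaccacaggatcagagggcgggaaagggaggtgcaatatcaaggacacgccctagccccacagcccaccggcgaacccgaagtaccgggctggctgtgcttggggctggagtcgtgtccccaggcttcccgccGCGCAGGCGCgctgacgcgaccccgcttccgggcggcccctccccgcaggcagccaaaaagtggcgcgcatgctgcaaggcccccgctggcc
The E-box in the Paics window begins 203 bases before its start and lies within the span of Ppat.

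E-boxes are bound by MYC, a regulator known to drive many nucleotide synthesis genes, so CACGTG was searched in the promoter windows of all members. RefSeq windows matched 29 of 31 members, and 4 held it: Atic, Impdh2, Nme1 and Paics. That is 5 of 36 windows, or 13.9%, against 10.5% of 9350 windows of expressed protein-coding genes and 7.15% of all 32851 windows, a difference of few windows. The motif reads the same on both strands. The windows of Atic, chr1:71556906-71557205 (plus strand), and Impdh2, chr9:108560186-108560485 (plus strand), show where it stands, 7 and 110 bases before the start.
Atic: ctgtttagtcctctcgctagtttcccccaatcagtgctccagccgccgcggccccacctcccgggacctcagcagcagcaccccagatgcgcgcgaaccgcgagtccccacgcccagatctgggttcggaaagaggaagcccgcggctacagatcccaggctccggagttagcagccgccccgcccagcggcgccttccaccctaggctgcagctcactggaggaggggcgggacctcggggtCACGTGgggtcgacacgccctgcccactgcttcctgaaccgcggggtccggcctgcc
Impdh2: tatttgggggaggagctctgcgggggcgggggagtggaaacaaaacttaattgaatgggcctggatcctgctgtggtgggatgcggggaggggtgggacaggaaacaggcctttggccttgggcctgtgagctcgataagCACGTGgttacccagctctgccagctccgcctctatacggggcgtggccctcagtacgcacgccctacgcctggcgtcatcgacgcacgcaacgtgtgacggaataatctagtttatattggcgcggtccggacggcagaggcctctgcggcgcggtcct
TGATGNAA, a motif of the kind ATF4 binds, was found on either strand in 1 member, Prps1, which is 2.78% of member windows against 2.17% of windows of expressed genes. The NRF1 element, read on both strands with 1 free base in its middle, was found in 3 members (Ctps, Ppat and Shmt2), or 8.33% of windows against 11.5% of those of expressed genes. Of the factors themselves, Atf4 had 74.1 and 80.9 TPM and Myc had 17.8 and 24.0 TPM. The NRF1 factor was not among the genes looked up.

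From IMP the path divides to GMP and AMP, and in each branch 1 of 2 isoform genes was the higher. Impdh2, the isoform of IMP dehydrogenase known from dividing cells, had 76.9 and 70.1 TPM. Impdh1, its relative, had 4.71 and 12.2 TPM. The fold of Impdh2 over Impdh1 was therefore 16.3 in replicate 1 and 5.75 in replicate 2, and its log2 ratio (of TPM + 1) averaged 3.10 ± 0.95 (n = 2). Impdh2 was the higher in both libraries. Between libraries, replicate 2 over replicate 1, Impdh1 differed 2.59-fold in TPM and Impdh2 0.911-fold. Gmps, which finishes GMP, had 10.9 and 12.2 TPM, so Impdh2 stood 7.06-fold and 5.75-fold above it.

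In the AMP branch, Adss, the broadly expressed adenylosuccinate synthase, had 45.8 and 49.4 TPM. Adssl1, the isozyme known from muscle, had 7.01 and 7.80 TPM. The fold was 6.53 and 6.34, over all transcripts the steadiest of the 7 pairs compared (log2 ratio 2.53 ± 0.02, n = 2). On protein-coding transcripts alone the log2 ratio was 2.33 and 2.10. It was not the steadiest there, since Shmt2 over Shmt1 had 1.35 and 1.28. Transcripts annotated with a retained intron held 14.1% and 25.9% of Adss TPM.

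The median of the pyrimidine genes, 7.83 and 11.5 TPM, was below that of the purine ring genes, and the 2 groups overlapped. Umps, which joins the ring to PRPP and gives UMP, had 21.4 and 22.6 TPM, above Pfas of the purine ring at 10.6 and 12.8 TPM. Cad, the trifunctional protein that starts the ring, had 7.83 and 11.5 TPM, and Dhodh, the mitochondrial dehydrogenase between them, had 4.73 and 4.95 TPM. In TPM Umps was 2.73-fold and 1.96-fold above Cad and 4.52-fold and 4.56-fold above Dhodh. In CPM (expected counts scaled by library total, not per length) Umps had 188.2 and 170.5, lower in replicate 2, and Cad had 122.8 and 149.4, higher in replicate 2. The order Umps, Cad, Dhodh was the same in both libraries.

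Little of the Dhodh level lay in transcripts that M21 classes as protein-coding. Transcripts classed as protein-coding in M21 held 0 and 0.04 TPM of it, transcripts with a retained intron 57.1% and 49.1%, and 1 model with no M21 entry 42.9% and 47.7%. In expected counts the model with no M21 entry, 2318 nucleotides long, held 325.52 of 446 and 972.11 of 1467. Whether it is coding is not known here. Dhodh is the only member that drops under 1 TPM when only M21 protein-coding transcripts are summed. With transcripts lacking an M21 type kept as well, its mean was 2.215 TPM.

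CTP synthases turn UTP into CTP, and here the 2 libraries gave opposite orders. Ctps had 13.0 and 13.9 TPM with overlapping bounds. Ctps2 had 34.0 TPM in replicate 1 (bounds 28.0 to 41.6) and 12.7 TPM in replicate 2 (11.6 to 14.3). Ctps over Ctps2 was thus 0.383-fold in replicate 1 and 1.09-fold in replicate 2. The reads did not differ that way, at 61.0 and 49.4 CPM for Ctps2.

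A single short model held most of the Ctps2 difference. This noncoding transcript, 199 nucleotides long, had 35.7 and 5.82 expected counts, yet 20.2 and 1.04 TPM, which is 59.3% and 8.19% of the gene's TPM. The mean effective length of the gene was accordingly 663 and 1678 bases. Protein-coding transcripts of Ctps2 summed to 11.2 and 9.64 TPM, and on those Ctps was the higher gene in both libraries (log2 ratio 0.20 and 0.47).

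PRPP synthetases make the sugar phosphate that both routes consume. Prps1 had 13.4 and 15.3 TPM, and Prps2 had 10.8 and 14.8 TPM. Prps1 was 1.24-fold and 1.04-fold above Prps2, a mean log2 ratio of 0.17 that equals its SD of 0.17 (n = 2), so the 2 could not be ordered. Of 4 relatives, 3 were at 1 TPM or more: Prpsap2 and Prpsap1, which encode proteins associated with the synthetase, had 6.77 and 8.32 TPM and 7.33 and 6.26 TPM. Prps1l1 had 0 counts in both libraries, and the limit that a count of 0 allows (3 counts, counting error only) is 0.107 and 0.0357 CPM.

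The level of Prps1 is uncertain because of a near-identical gene. Prps1l3 on chromosome 12 was listed at 24.9 and 26.3 TPM, above Prps1 itself, and the expected counts of both genes were not whole numbers, as happens when reads are divided between genes. Over 954 coding bases, Prps1-201 and Prps1l3-201 were 96.9% identical with a longest identical run of 164 bases, whereas Prps1-201 and Prps2-201 were 80.0% identical with a longest run of 20. The first 60 coding bases of each (GENCODE M21) are printed to show how little separates their reads, with the 3 differing bases in capitals.
Prps1: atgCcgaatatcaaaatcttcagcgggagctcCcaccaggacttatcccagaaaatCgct
Prps1l3: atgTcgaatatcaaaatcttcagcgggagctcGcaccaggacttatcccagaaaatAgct

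The serine synthesis genes stood in the order of their 3 steps. Phgdh, the dehydrogenase that draws carbon from glycolysis, had 79.0 and 79.5 TPM and was second only to Paics by mean level. Psat1, the aminotransferase, had 19.3 and 20.5 TPM. Psph, the phosphatase that releases serine, had 4.59 and 3.74 TPM and was the lowest of the 31 by mean. Phgdh was 4.10-fold and 3.89-fold above Psat1, and Psat1 was 4.20-fold and 5.47-fold above Psph.

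The size of the Phgdh lead and its rank among the 31 depend on a short model. Phgdh-202, 446 nucleotides and annotated as protein-coding, held 66.4% and 60.7% of its TPM with 928.16 and 2296.58 of its expected counts. On the longest protein-coding model of each gene the order was the same: Phgdh-201 had 26.1 and 31.2 TPM, Psat1-201 had 14.3 and 19.8 TPM, and Psph-201 had 4.29 and 3.67 TPM. Psph also shares 452 exon bases, 10.4% of its own, with Cct6a on the opposite strand, a gene at 82.0 and 90.8 TPM.

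Folate one-carbon enzymes had a median of 22.2 and 23.7 TPM, with the cytosolic trifunctional enzyme on top. Mthfd1, which interconverts folate one-carbon forms in the cytosol, had 40.2 and 46.9 TPM from a single transcript model. Mthfd2, the mitochondrial dehydrogenase known from embryonic and tumour cells, had 4.76 and 5.75 TPM. Mthfd1l, the mitochondrial enzyme that releases formate, had 24.2 and 32.9 TPM. Mthfd1 was 8.45-fold and 8.15-fold above Mthfd2, and Mthfd2 over Mthfd1l was 0.196-fold and 0.175-fold.

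Serine hydroxymethyltransferases move the carbon of serine to folate. Shmt2, the mitochondrial form, had 22.2 and 23.7 TPM. Shmt1, the cytosolic form, had 16.08 and 16.02 TPM. Shmt2 was 1.38-fold and 1.48-fold above Shmt1, a log2 ratio of 0.49 ± 0.07 (n = 2). On protein-coding transcripts the log2 ratio was 1.35 and 1.28: 50.2% and 57.3% of Shmt1 TPM was in such transcripts, while Shmt2 has 1 model. For Mthfd1l, the noncoding model Mthfd1l-204 of 690 nucleotides held 41.6% and 53.3% of TPM, so its protein-coding level was 14.2 and 15.4 TPM.

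Salvage enzymes were led by a single gene. Hprt, which rescues hypoxanthine and guanine, had 70.6 and 78.2 TPM from its only transcript model, next to Phgdh and Impdh2 in level. Aprt, which rescues adenine, had 13.2 and 12 TPM, and Dck, which phosphorylates deoxycytidine and purine deoxynucleosides, had 7.77 and 9.80 TPM. Hprt was 5.36-fold and 6.51-fold above Aprt and 9.09-fold and 7.98-fold above Dck.

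Against salvage, the de novo route was higher by median, and the gap was close to 0 by the mean of logs. The 16 enzymes from PRPP to GMP, AMP and CTP had a median of 21.5 TPM in replicate 1 and 18.2 TPM in replicate 2, against 13.2 and 12 TPM for the 3 salvage enzymes. In replicate 1 the de novo median fell between Ppat and Umps, at 21.67 and 21.38 TPM. In replicate 2 it fell in a gap between Umps and Ctps, at 22.55 and 13.86 TPM. Ctps2, whose TPM depends on a short model, was above the median in replicate 1 and below it in replicate 2. The difference of log2 (median TPM + 1), de novo minus salvage, was 0.67 and 0.56 (0.62 ± 0.07, n = 2). Taking the mean of log2 (TPM + 1) over members in place of the median left 0.036. Hprt itself exceeded all but 2 of the 16 de novo genes in replicate 1 (Paics and Impdh2) and all but 1 in replicate 2 (Paics). Summing protein-coding transcripts only gave 0.38.

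Lengthening or shortening the lists kept the direction of the medians. With 7 further kinases added, the salvage list of 10 had a median of 14.4 and 11.6 TPM, against the same 21.5 and 18.2 TPM of the 16 de novo enzymes. Restricted to 9 de novo genes up to IMP and UMP, the de novo median was 21.7 and 23.1 TPM. Individual enzymes of the routes overlapped widely: Dck, the lowest salvage gene of the 3, was above 3 of the 16 de novo genes in replicate 1 and 2 in replicate 2.

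**Figure D2:**
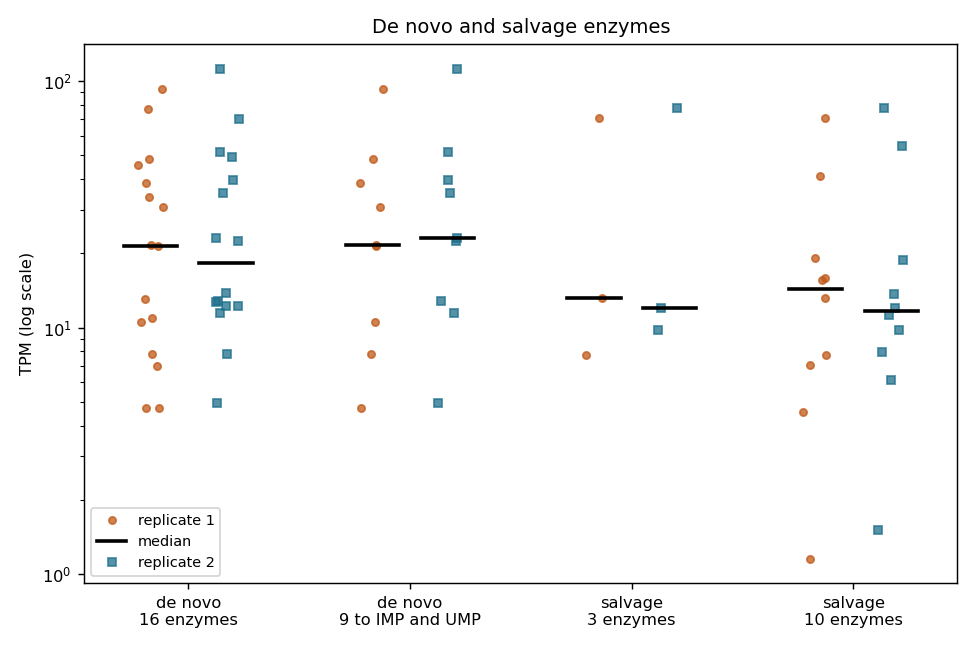
TPM on a log axis for the enzymes of 2 de novo lists and 2 salvage lists, one point per gene in replicate 1 (circles) and replicate 2 (squares), with bars at the medians. The medians of the 16 de novo enzymes are 21.5 and 18.2 TPM and those of the 3 salvage enzymes 13.2 and 12 TPM, and the points of the lists overlap.

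The wider salvage pathways were uneven. Of 17 other genes of purine salvage and interconversion measured, 13 were at 1 TPM or more in both libraries, with a median of 3.74 and 4.45 TPM. Adk, adenosine kinase, had 19.2 and 18.8 TPM. Xdh, the oxidase that degrades purines to urate, had 0.17 and 0.26 TPM, and Ampd1, a muscle AMP deaminase, had 0 counts in both. Of 13 genes of pyrimidine salvage and breakdown, 8 passed 1 TPM. Uck2, a uridine-cytidine kinase, had 41.1 and 54.4 TPM, above all 3 enzymes that make UMP, while Cda and Dpyd, which deaminate cytidine and break down uracil, had 0 counts in both libraries.

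Genes that supply DNA precursors were all expressed. All 10 of the list passed 1 TPM, with a median of 19.1 and 19.5 TPM. Rrm1, the large subunit of ribonucleotide reductase, had 63.7 and 70.9 TPM and its partner Rrm2 had 19.7 and 20.2 TPM. Dtymk, thymidylate kinase, had 56.6 and 55.3 TPM, and Dut, which removes dUTP, had 51.4 and 58.4 TPM. Rrm2b, the small subunit known from p53 responses, was lowest at 1.42 and 2.85 TPM.

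In the wider folate and methyl cycle 14 of 22 genes passed 1 TPM, with a median of 3.27 and 3.03 TPM. Mat2a, which makes S-adenosylmethionine, had 38.5 and 44.8 TPM, and Dld, a subunit shared with other dehydrogenase complexes, had 31.2 and 34.7 TPM. Gldc and Amt, specific parts of the glycine cleavage system, had 0 and 0.04 TPM and 0.17 and 0 TPM, while Gcsh had 18.3 and 17.0 TPM. Aldh1l2, Folr1, Folr2 and Ftcd had 0 counts in both libraries. Mthfd2l, a relative of Mthfd2, had 2.38 and 2.18 TPM. Of 10 genes of serine and glycine transport and use 7 passed 1 TPM, led by the mitochondrial serine carrier Sfxn1 at 16.8 and 21.1 TPM, and Sds, serine dehydratase, had 0 counts in both.

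Nucleoside diphosphate kinases pass phosphate between nucleotides, and both members were above the median of the 31. Nme2 had 52.6 and 38.2 TPM, and Nme1 had 22.4 and 26.7 TPM. The Nme1 level, and with it the fold between the pair, depends on a short model. Nme1-201, 493 nucleotides and annotated as protein-coding, held 62.6% and 68.1% of Nme1 TPM with 298.43 and 1032.43 of its expected counts. The longer Nme1-203, with most of the expected counts (1676.85 and 4654.05), had 7.42 and 8.02 TPM. Nme2 was 2.34-fold and 1.43-fold above Nme1, a log2 ratio of 0.85 ± 0.49 (n = 2). It was above Nme1 in TPM in both libraries, yet in CPM, which is not per length, Nme2 had 83.7 and 58.3 and Nme1 had 70.8 and 67.9. Of 5 relatives 4 passed 1 TPM, the highest being Nme4, a mitochondrial form, at 16.1 and 18.4 TPM, and Nme5 had 0 counts in both.

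Nme2 and Nme1 lie next to each other on the minus strand of chromosome 11, at chr11:93949814-93956259 and chr11:93956979-93968521. Their coding sequences of 456 bases were 80.3% identical, with a longest identical run of 29 bases. Expected counts were 2356.86 and 4899.46 for Nme2 and 1993 and 5710.35 for Nme1, so that of Nme1 was whole in replicate 1. Whether reads were divided between the pair was not tested. The first 60 coding bases (GENCODE M21) are printed to show how the pair differs, with the 9 differing bases in capitals.
Nme2: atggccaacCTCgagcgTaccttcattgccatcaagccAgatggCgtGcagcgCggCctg
Nme1: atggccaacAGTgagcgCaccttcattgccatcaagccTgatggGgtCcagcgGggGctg
Gm20390, annotated across both genes, had 0 and 6.07 expected counts. In at least 1 library expected counts were not whole for 5 of the 31 members (Impdh2, Prps1, Phgdh, Nme1 and Nme2). The share was 10.9% of 11185 protein-coding genes with a mean count of at least 50, taking counts within 0.005 of a whole number as whole.

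**Figure D3:**
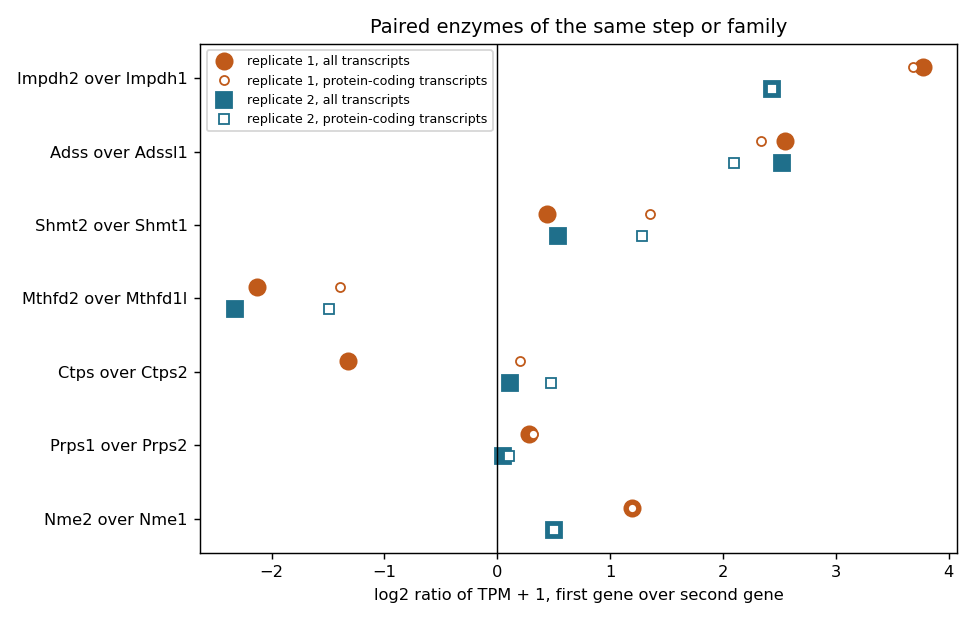
Log2 ratio of TPM + 1 (horizontal axis) for the 7 pairs of related enzymes, first gene over second, in replicate 1 (circles) and replicate 2 (squares), with all transcripts filled and protein-coding transcripts open. Impdh2 over Impdh1 is at 3.77 and 2.43, and Ctps over Ctps2 is the pair whose filled symbols lie on both sides of 0, at -1.32 and 0.12.

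Transcript models shape several of these levels. The 31 genes have 149 transcripts in the deposited tables, 12 of them without an M21 entry, and 6 genes have a single one. In 17 of the 31 at least 90% of TPM lay in protein-coding transcripts in both libraries, against 59.9% of 11119 protein-coding genes with a mean count of at least 50 and some TPM in both. In 9 it was under 75% in at least 1 library, against 28.4% of those genes. The highest transcript was the same in both libraries for 27 members, against 80.1% of those genes. Gart was among the other 4: its full-length model Gart-201 had 13.9 and 10.4 TPM, the shorter Gart-202 had 12.8 and 12.2 TPM, and Gart-203, annotated for nonsense-mediated decay, had 4.20 and 12.5 TPM. For Atic, Atic-204, a retained-intron model of 434 nucleotides, held 33.9% and 28.4% of TPM from 276.23 and 665.34 expected counts, and its coding model Atic-201 had 29.0 and 34.2 TPM.

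**Figure D4:**
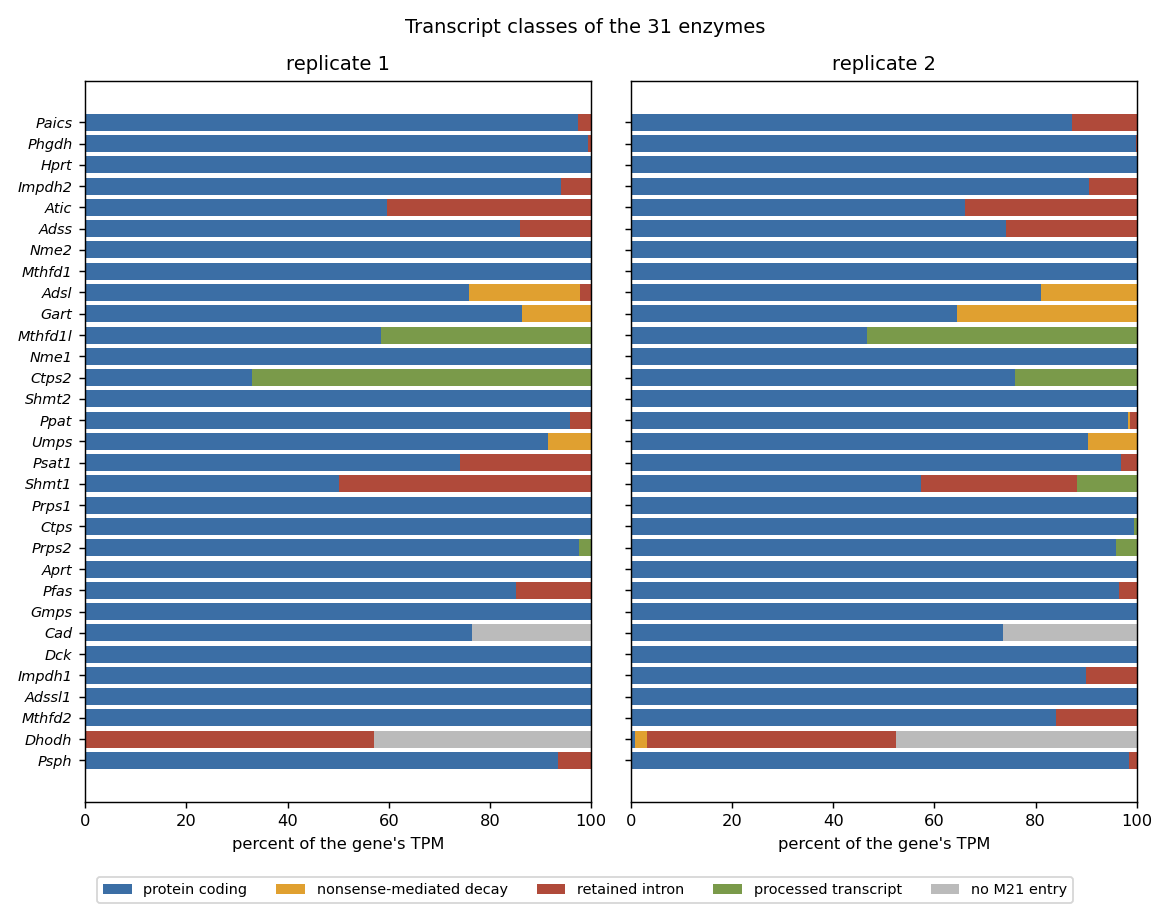
Percent of each gene's TPM in transcripts of each GENCODE M21 class (horizontal axis) in replicate 1 (left) and replicate 2 (right), with genes in order of mean TPM. Ctps2 has 33.0% and 75.9% in protein-coding transcripts, and Dhodh has almost none in either library.

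The libraries agreed on the reads of these genes. Scaled CPM (expected counts with TMM scaling, on a log2 scale with a prior count of 0.5) differed 2-fold or more for 0 of the 31, against 10.4% of 12704 genes averaging 50 or more expected counts. At 1.5-fold there was 1, Impdh1, higher in replicate 2 by 0.64 (log2), against 21.4% of all genes in either direction. Both shares are over genes of every type and admit lower counts than the members had (at least 446 and 953). They are therefore not matched to the members in depth or class. The median log2 ratio, replicate 2 over replicate 1, was -0.06 for the members and 0.02 for all genes. Members ranged from -0.58 (Psph) to 0.64 (Impdh1), with Nme2 at -0.52 and Cad at 0.29.

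In TPM the libraries were further apart. Their labels also give size ranges that differ, 200 to 1000 in replicate 1 against 187 to 1606 in replicate 2 (unit not stated), and the part of this in the TPM differences was not tested. Impdh1 and Ctps2 were 2-fold apart in TPM, 2 of 31 against 11.8% of 11185 protein-coding genes. Impdh1 had 25.04 and 39.00 CPM, and its effective length was 1962 and 1382 bases, a ratio of 0.705. Its 2.59-fold ratio of TPM exceeded its 1.56-fold ratio of CPM, and the shorter effective length gives only part of that excess. Deposited bounds did not overlap for 22 of 31 members, 18 higher and 4 lower in replicate 2, against 65.3% of protein-coding genes in all, 51.2% higher and 14.1% lower. TPM was higher in replicate 2 for 25 members and lower for 6. With TPM rescaled so that nuclear protein-coding genes have the same total in each library, it was higher for 16 and lower for 15, and bounds rescaled in the same way did not overlap for 10 higher and 5 lower, against 61.3% of protein-coding genes in all, 40.6% higher and 20.7% lower. Protein-coding genes held 20.1% and 21.5% of all TPM, a ratio of 1.07 between the libraries.

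**Figure D5:**
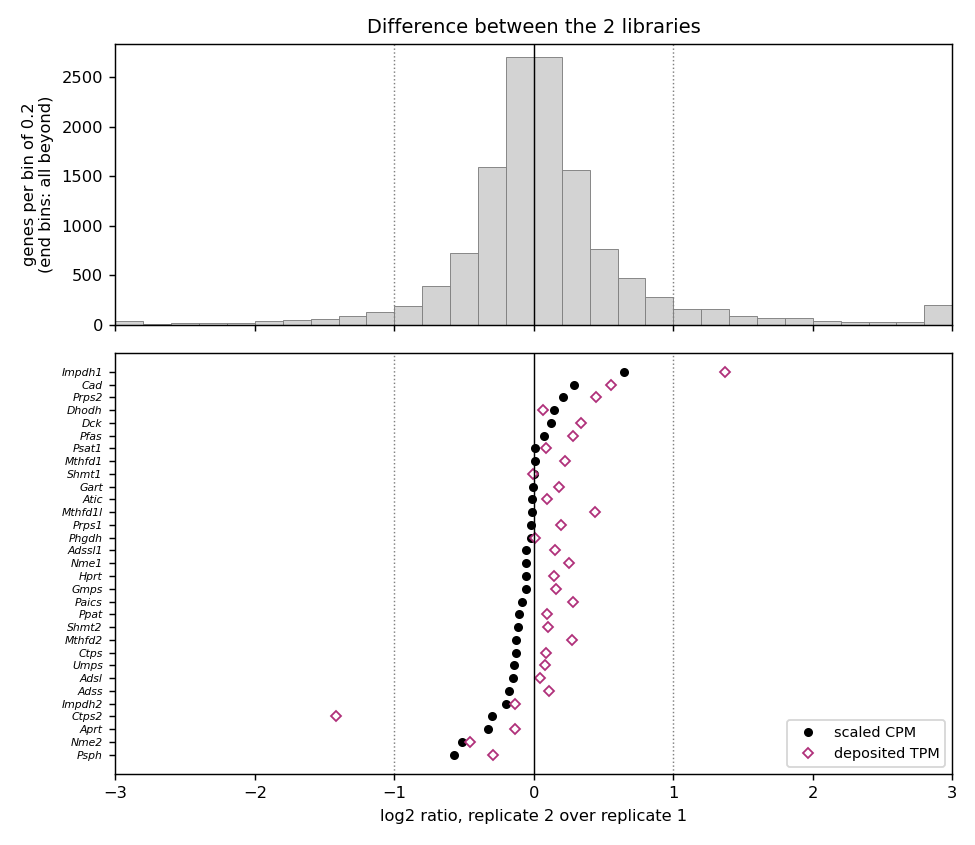
Top, number of genes averaging 50 or more expected counts by log2 ratio of scaled CPM, replicate 2 over replicate 1. Bottom, the same ratio for each of the 31 members (filled) beside the ratio of deposited TPM (open), with dotted lines at 2-fold, where all filled symbols lie within the lines and Impdh1 and Ctps2 lie outside them in TPM.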

How the data were processed

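Both libraries of total RNA from 1 group were used, and the members and gene lists were chosen with earlier results of these data known. Expected counts, TPM and posterior mean TPM were deposited by the authors per gene and per transcript on mm10 and GENCODE M4 (per the readmes). The TPM bounds, a signal per the file headers with 95% limits, were deposited beside them. Effective lengths were deposited in the same tables. Neither aligner nor quantifier is named; both are not given in the sources used here. GENCODE M21 (GRCm38, the assembly of mm10) gave names, transcript classes and coordinates, matched by Ensembl ID for 42462 of 43346 genes; unmatched genes held 0.277% of counts in each library. Of 164 listed symbols 163 matched, and Pnp was not analysed here.

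Levels were read in TPM, which is relative to all entries of a table, short structural RNAs included. Values were summarised as mean and SD over 2 libraries. Log2 ratios between genes used a pseudocount of 1, and folds are plain ratios of TPM. Expected counts were rounded and scaled by TMM in edgeR 4.0.16 (R 4.3.3), with size factors of DESeq2 1.42.0 as an alternative, after the calculation was tested on simulated data. Depth was 28158803 and 84041054 counts; limits for 0 counts cover counting error only, since PCR copies were not marked by molecular identifiers. Named genes were all members, the 3 highest and 2 lowest of each further list with those at 0 counts in both libraries, any marker, and transcripts with at least 20% of a gene's TPM. Rrm2, Gldc, Amt, Gcsh, Mthfd2l and genes that overlap members were named after their values were seen. Some genes that the rule would name are not reported here. Coding sequences were aligned end to end with Biopython 1.88. Neither library was left out of the levels given.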

Additional observations from a re-analysis of the deposited data

How the results depend on the processing

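No paired analysis was possible because there is 1 group. With 2 libraries from 1 donor label, levels have a spread but no test, and depth (28158803 counts in replicate 1) limits mainly transcripts of few reads. Leaving out replicate 1 or 2 left de novo minus salvage at 0.56 to 0.67 and Ctps over Ctps2 at -1.32 to 0.12, the only one of the 7 log2 ratios to change sign. That ratio, -0.60 on average, was 0.34 on protein-coding transcripts, and 0.34 also when transcripts without an M21 type were kept, an alternative added after seeing the data.

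Rescaling TPM to nuclear protein-coding genes changes the unit, and medians became 101 for all members, 174 for purine to IMP, 55.4 for the IMP branches, 46.2 for pyrimidines, 89.3 for CTP synthases, 65.0 for PRPP synthetases, 95.5 for serine, 110.2 for folate, 60.6 for salvage and 169 for nucleoside diphosphate kinases. Log2 ratios became 2.65 for Adss over Adssl1 and -2.39 for Mthfd2 over Mthfd1l. On protein-coding transcripts, with or without those lacking an M21 type, medians were 14.8 for all members, 27.7 for purine to IMP, 17.1 for serine and 14.8 for folate. The median of the nucleoside diphosphate kinases stayed at 35.0 there. Log2 ratios there were 2.21 for Adss over Adssl1, 1.32 for Shmt2 over Shmt1 and -1.44 for Mthfd2 over Mthfd1l, and de novo minus salvage was 0.38. De novo minus salvage was 0.036 with the mean of logs and 0.78 with 9 de novo enzymes. A pseudocount of 0.1 gave 2.67 for Adss over Adssl1 and -2.41 for Mthfd2 over Mthfd1l. At 1.5-fold in place of 2-fold, 1 member differed between libraries. Levels of single members moved by 1 SD or more for all 31 under rescaling, for 10 on protein-coding transcripts and for 3 with posterior mean TPM; leaving out 1 of 2 libraries always moves a mean by less than that.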
